A study of Mus musculus with 46 samples.

Results

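The major urinary protein (Mup) cluster of mouse chromosome 4 was examined in ChIP-seq peak lists of histone acylation in liver. Its members were all peaks on chromosome 4 between 59900000 and 62300000 (GRCm38), 3302 of 2037604 peaks in 38 libraries. The window held 0.162% of all peaks and 0.0913% of the length of the chromosomes used. PA mice were homozygous for a hypomorphic Pcca allele (A138T) and model propionic acidemia, and WT mice had the normal gene. Propionyl-CoA is cleared in mitochondria by a carboxylase, 1 subunit of which is the product of Pcca. Both groups were females of 11 weeks on the FVB background, fed standard chow, and chromatin of frozen whole liver was digested with MNase for native ChIP. Antibodies to H3K9ac, H3K27ac, H4K16ac and H4K16bu (ac, acetyl; bu, butyryl) were used on preparations with the letter A. Antibodies to H4K5ac, H4K5pr, H4K12ac, H4K12pr and H4K16pr (pr, propionyl) were used on preparations with the letter B. Each of these 9 antibodies had 2 PA and 2 WT libraries, so values averaged over antibodies had 4 PA and 4 WT preparations. A further in-house H4K16pr antibody had 2 WT libraries and entered no comparison.

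Major urinary proteins are small lipocalins, barrel-shaped carriers that hepatocytes secrete into blood and that pass into urine, where they bind volatile pheromones. Their genes form a tandem array in which the central copies are nearly identical and the genes at both ends are more diverged. In liver, transcription of the array is known to depend on pulsed growth hormone acting through STAT5 and is usually stronger in males than in females. Acylation of histone tails, of which acetylation is the most familiar form, marks active promoters and enhancers.

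The annotation placed 22 Mup genes and 22 Mup pseudogenes, told apart by name, between 59956804 and 62150841. By type, Mup-ps12 and Mup-ps16 are protein-coding and Mup-ps15 is a non-coding RNA gene. RefSeq (GRCm38.p6) promoter sequences matched 14 of the 22 genes by symbol. Promoters of 300 bases were identical over long runs. The 45 pairs among 10 central genes were 91.1% to 99.0% identical (median 96.5%), and the 40 pairs of a central with an edge gene were 74.1% to 88.6% identical (median 81.0%). Identity was scored over the aligned columns with free end gaps, and pairs with Mup7 aligned over 163 to 226 columns. The 88.6% was that of Mup6 with Mup7, over 201 columns. The sequences below show this likeness for copies that differed in their marks. Mup19 (chr4:61782175-61782474, minus strand) and Mup15 (chr4:61439655-61439954, minus strand) are central genes that were less covered in PA. Mup18 (chr4:61674045-61674344, minus strand) is a central gene with no call. Mup6 (chr4:60003231-60003530, plus strand) is an edge gene that was more covered in PA, and Mup3 (chr4:62087268-62087567, minus strand) is an edge gene covered in nearly its whole length in both genotypes. Capitals mark 2 searched motifs, ATCAAT, the core bound by the liver factor family Onecut, and the core promoter letters TATATAA.
Mup19: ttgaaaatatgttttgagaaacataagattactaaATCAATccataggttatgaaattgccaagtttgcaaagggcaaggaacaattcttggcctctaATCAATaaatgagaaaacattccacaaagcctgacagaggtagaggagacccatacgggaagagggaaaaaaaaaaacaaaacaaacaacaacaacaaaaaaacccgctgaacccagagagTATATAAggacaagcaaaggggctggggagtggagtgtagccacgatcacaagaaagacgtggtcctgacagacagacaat
Mup15: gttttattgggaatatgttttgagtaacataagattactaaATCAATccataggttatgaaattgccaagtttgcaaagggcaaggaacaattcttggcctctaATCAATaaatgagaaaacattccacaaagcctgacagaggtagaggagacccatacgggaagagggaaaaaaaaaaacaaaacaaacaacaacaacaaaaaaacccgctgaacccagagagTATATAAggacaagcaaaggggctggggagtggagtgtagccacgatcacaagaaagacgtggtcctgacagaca
Mup18: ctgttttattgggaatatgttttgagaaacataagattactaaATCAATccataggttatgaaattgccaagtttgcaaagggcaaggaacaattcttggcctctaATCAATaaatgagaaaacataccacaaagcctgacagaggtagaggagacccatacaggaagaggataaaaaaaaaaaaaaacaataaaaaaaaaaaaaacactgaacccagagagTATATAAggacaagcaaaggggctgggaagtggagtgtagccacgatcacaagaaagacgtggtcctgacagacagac
Mup6: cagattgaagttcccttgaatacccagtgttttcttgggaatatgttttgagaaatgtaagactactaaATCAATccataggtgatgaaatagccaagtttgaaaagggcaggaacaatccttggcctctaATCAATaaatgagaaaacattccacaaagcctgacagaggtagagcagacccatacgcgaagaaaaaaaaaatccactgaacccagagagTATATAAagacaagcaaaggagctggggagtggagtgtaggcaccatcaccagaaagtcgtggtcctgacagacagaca
Mup3: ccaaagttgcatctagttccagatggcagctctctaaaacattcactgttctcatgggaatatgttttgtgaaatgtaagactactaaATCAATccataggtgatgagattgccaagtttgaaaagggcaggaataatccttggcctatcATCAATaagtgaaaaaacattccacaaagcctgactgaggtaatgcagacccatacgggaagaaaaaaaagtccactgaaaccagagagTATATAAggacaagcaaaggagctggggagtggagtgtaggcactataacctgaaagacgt
Mup19 and Mup15 shared a run of 275 identical bases. Each of the 5 promoters had 2 ATCAAT matches and 1 TATATAA match. On either strand, ATCAAT was present in 14 of 14 Mup promoters, against 7.54% of all 32851 promoters. TATATAA was present in 13 of 14 Mup promoters, against 3.24% of all promoters, and Mup7 lacked these letters. The STAT5 motif TTCNNNGAA was found in 0 of 14 Mup windows, against 8.30% of all promoters, and the FOXA motif TGTTTAC in 0 of 14, against 3.65%. The 2 printed motifs did not overlap. A shared 50-base stretch was found for 99.2% of the positions in the Mup15 promoter and 96.8% in that of Mup19, against 0% in those of Mup3 and Mup21. No source used here says how reads fitting several copies were placed, and the build is that of C57BL/6J while the mice were FVB, whose copies may differ in number. Values of single central copies are therefore uncertain.

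In the cluster as a whole, the share of each library's covered length averaged lower in PA than in WT, with a p that cannot pass 0.05 in this design. PA libraries of the 9 antibodies held 44068, 59593 and 70886 peaks (lowest, median and highest), against 32358, 52415 and 63531 in WT libraries. The cluster held 0.101%, 0.111%, 0.120% and 0.152% of the covered length in the 4 PA preparations, against 0.146%, 0.172%, 0.177% and 0.196% in the 4 WT preparations. The share averaged 0.121% ± 0.0221 in PA and 0.173% ± 0.0205 in WT (SD, n = 4 each). PA preparation 2B lay above WT preparation 1A, which had other antibodies, and within each letter the PA and WT values did not overlap. The SDs over 4 preparations include differences between the antibodies of letters A and B. The difference was -0.0516 percentage points (exact two-sided permutation within letters, p = 0.0556, the smallest p that the design allows). Within each antibody, both PA shares were below both WT shares in 9 of 9 antibodies. The share is divided by the library's own covered length, and a larger covered length lowers it. That length had a median of 4.92% of the chromosomes used in PA libraries, against 4.26% in WT libraries. The ratio of PA to WT was 0.701 for the share and 0.873 for the covered length of the cluster. Covered length in base pairs was 159039 ± 30527 in PA and 182204 ± 25080 in WT (SD, n = 4 each; exact two-sided permutation p = 0.111), and was lower in 8 of 9 antibodies. H4K16ac was the exception, with 112888 bp in PA and 92174 bp in WT on average, and its libraries held 60491 and 52093 peaks in PA and 46402 and 32358 in WT. The number of peaks averaged 82.6 ± 13.99 in PA and 94.5 ± 6.65 in WT (SD, n = 4 each; exact two-sided permutation p = 0.111). Whether A and B preparations of 1 number share a liver is not stated in the labels, so p-values measure the spread between these preparations. Deviations from the group mean over bins correlated between A and B of 1 number within a genotype, with r = 0.143 in PA and r = 0.319 in WT. With 2 preparations per genotype and letter, these values cannot show whether A and B share a liver. With A and B of 1 number averaged, 2 against 2, the share differed by the same amount, and the smallest p possible and found was 0.333.

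**Figure D1:**
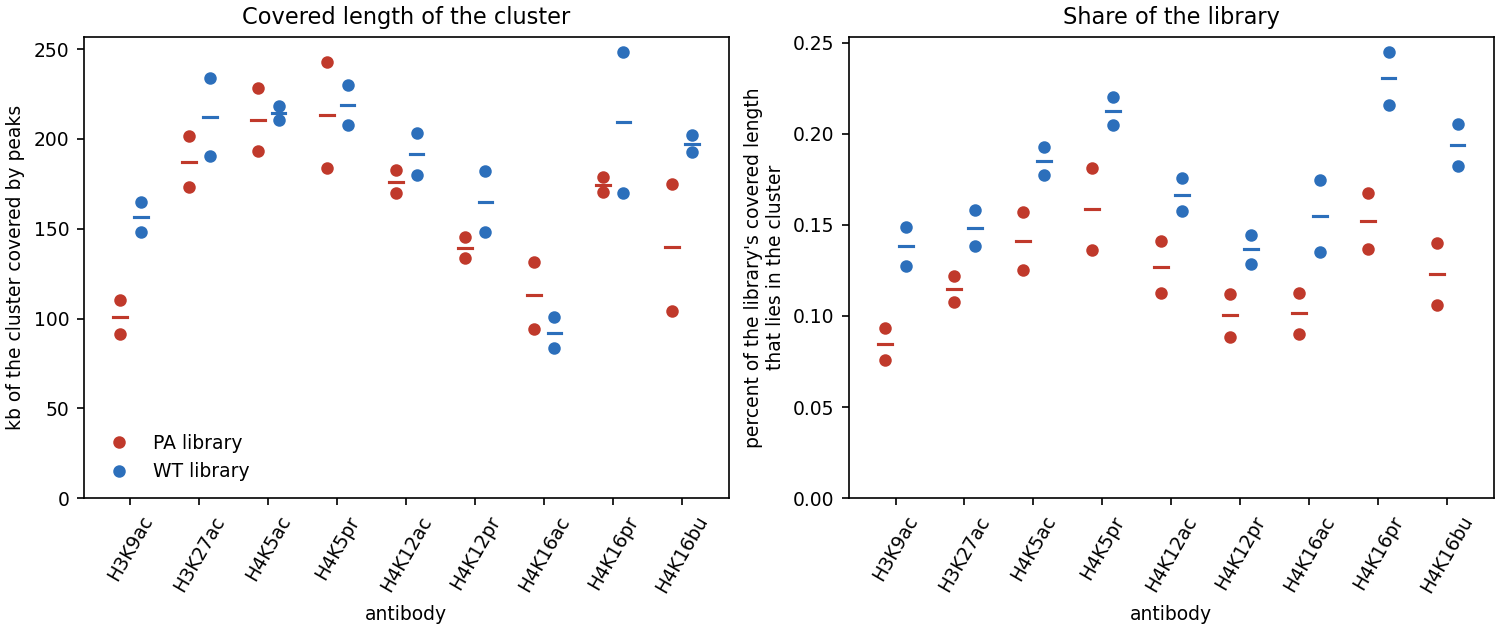
Length of the cluster covered by peaks in kb (left) and share of each library's covered length that lay in the cluster in percent (right), by antibody; points are libraries, 2 PA (red) and 2 WT (blue) each, and bars are their means. PA libraries lay below both WT libraries in 9 of 9 antibodies by share, but in 3 of 9 by covered length.

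The difference was also set against the neighbouring chromosome. Coverage of the cluster minus that of 2.4 Mb on each side was -1.31 ± 1.01 percentage points in PA and 1.004 ± 0.985 in WT (SD, n = 4 each). The difference was -2.32 points (exact two-sided permutation p = 0.0556, again the smallest possible) and was negative in 9 of 9 antibodies. Both terms differed: the flanks were 7.94% ± 0.396 covered in PA and 6.59% ± 0.235 in WT (difference 1.35 points), and the cluster 6.63% ± 1.27 in PA and 7.59% ± 1.05 in WT (difference -0.965 points; SD, n = 4 each). The larger term was the higher coverage of the flanks in PA. The range of the window coverage itself was 3.81% to 10.1% in PA libraries and 3.48% to 10.4% in WT libraries. Restricted to Mup genes and pseudogenes with 2.5 kb on each side, peaks covered 82715 ± 16886 bp in PA and 107156 ± 12510 bp in WT (SD, n = 4 each; difference -24440 bp, exact two-sided permutation p = 0.0556).

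By position, the bins that fell in PA lay in separate places from Mup22 to just beyond Mup-ps16, several of them single bins. The bins that rose lay toward the ends of the array. Of 240 bins of 10 kb, 92 had peaks in at least 2 libraries and were tested with limma (threshold 0.05 after Benjamini-Hochberg adjustment over 74931 bins of the genome). In PA, 13 of these 92 bins were lower, against 0.749% of all bins tested, and 2 were higher, against 9.95%. Of the 92, 12 had all PA preparations below all WT preparations, against 1.06% of all bins, and 4 had all above, against 14.0%. In the flanks, 3 of 224 bins were lower and 19 were higher. The median difference was -40.7 bp per bin over the 92 bins, against 158 bp over all bins tested. The lower bins ran from 60810001 to 61820000, with 9 of the 13 from Mup15 onward. Without single preparations the count of lower bins was 8 without PA 1A or 2A and 6 without PA 1B, WT 2A or WT 2B, and the count of higher bins was 1 without PA 2B, WT 1B or WT 2B. Averaging A and B of 1 number, 2 against 2, left 0 bins called (smallest adjusted p 0.0967).

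**Figure D2:**
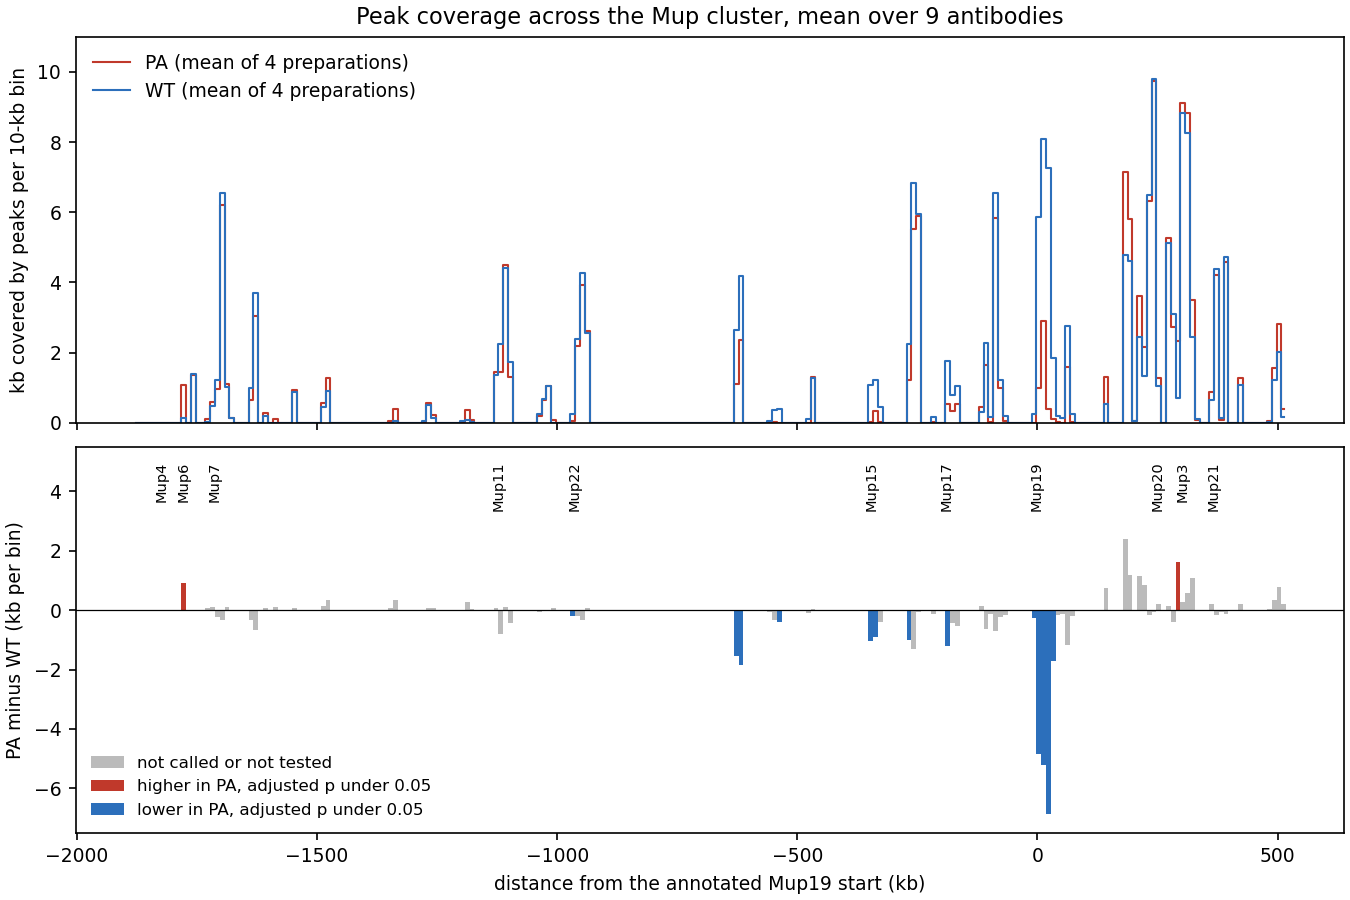
Mean covered length per 10-kb bin in PA (red) and WT (blue) across the cluster (top, kb) and PA minus WT (bottom, kb; blue, called lower; red, called higher; grey, neither or not tested), against distance from the annotated Mup19 start in kb. The deepest difference lies just beyond Mup19, with 13 lower and 2 higher bins in all.

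The largest differences lay in 40 kb that begin in Mup19 and run through Mup-ps16, a neighbouring Mup pseudogene by name that RefSeq types as protein-coding. The bin from 61800001 to 61810000 had 0, 0, 400 and 1214 covered bp in the 4 PA preparations, against 6564, 6765, 7959 and 7803 bp in the 4 WT preparations. All PA values were far below all WT values, and the bin fell by 6869 bp (SE 264, limma adjusted p = 3.24e-05). The bin before it, from 61790001, had 1380, 2876, 2952 and 4350 bp in PA, against 8276, 6877, 7958 and 9251 bp in WT, and fell by 5201 bp (SE 516, limma adjusted p = 0.00215). The bin from 61780001, which holds the start of Mup19, had 328, 441, 507 and 2726 bp in PA, against 5588, 5553, 5970 and 6307 bp in WT, and fell by 4855 bp (SE 436, limma adjusted p = 0.00158). The bin that closes the stretch, from 61810001, fell by 1727 bp (SE 208, limma adjusted p = 0.00337). These 4 bins kept their call without any 1 preparation. Summed over the 40 kb, which were chosen after their values were seen, peaks covered 11.0% in PA and 57.6% in WT. PA libraries had 0, 4472 and 13386 bp (lowest, median, highest), against 14118, 23860 and 27630 bp in WT libraries. The PA libraries were below the WT libraries of the same antibody in 9 of 9 antibodies. The highest PA library, of H4K5pr, still lay below the lowest WT library, of H4K16ac. With H4K16bu, for example, 500 and 4512 bp were covered in PA and 23558 and 25053 bp in WT.

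**Figure D3:**
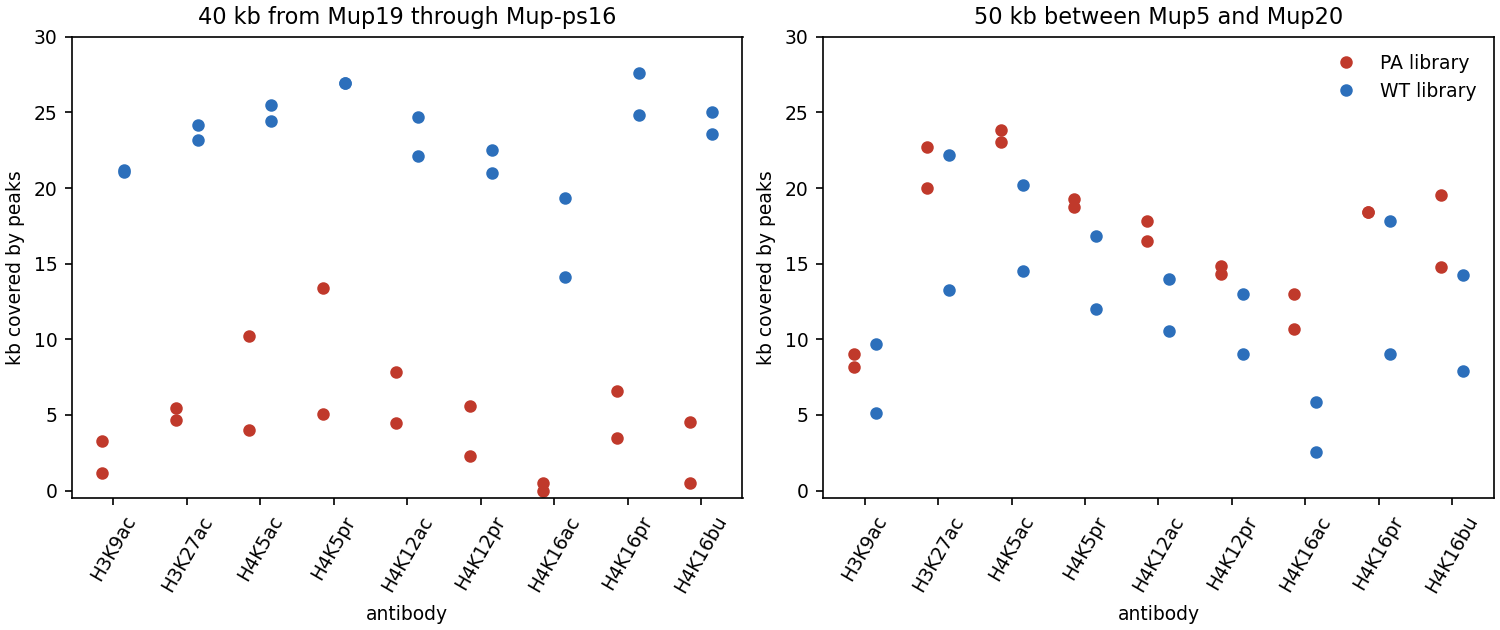
Covered length in kb per library, by antibody, in the 40 kb from Mup19 through Mup-ps16 (left) and in 50 kb between Mup5 and Mup20 (right), with PA in red and WT in blue. PA and WT libraries do not overlap on the left, where PA libraries reach 13386 bp and WT libraries begin at 14118 bp, and PA means are higher on the right for each antibody.

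Toward the distal end lay a bin called higher in PA. In the whole cluster 2 of 92 bins were called higher, against 9.95% of all bins tested. In the bin from 62070001 to 62080000, between Mup20 and Mup3, PA preparations had 1179, 1507, 3233 and 3390 bp, against 594, 336, 578 and 1303 bp in WT. The highest WT value, of letter B, was above the lowest PA value, of letter A, but the values did not overlap within a letter. The bin rose by 1625 bp (SE 340, limma adjusted p = 0.0199). The call was lost after quantile normalization (adjusted p = 0.0621), without H4K16ac (0.0736), and without PA 1B (0.0741), PA 2B (0.0557), WT 1B (0.0595), WT 2A (0.0520) or WT 2B (0.0614). One peak region there, from 62073246 to 62076111, was present in 12 of 18 PA libraries and 2 of 18 WT libraries. In the 50 kb from 61950001 to 62000000, peaks covered 16628 ± 2187 bp in PA and 11895 ± 3824 bp in WT (SD, n = 4 each), with the PA mean higher in 9 of 9 antibodies. No bin of it passed the threshold, and its strongest bin, from 61960001, differed by 2386 bp (SE 684, limma adjusted p = 0.0548). The 50 kb as a whole were not tested, and whether their bounds preceded a look at their values is not recorded. After quantile normalization that bin differed by 1637 bp (limma adjusted p = 0.231). The bins from 61970001, 61980001 and 61990001 then differed by 403, -41.5 and 509 bp. A rise is also common elsewhere, as 57661 of all 74931 bins tested averaged higher in PA. Between Mup-ps2 and Mup-ps9, by contrast, 990 kb had 24317 ± 6432 bp in PA and 24507 ± 4698 bp in WT (SD, n = 4 each), which is 2.46% and 2.48% of its length. The PA mean there was lower in 4 antibodies and higher in 5, with no overlap of PA and WT libraries in 3. The stretch also held the bin from 60810001 at Mup22, called lower in PA (-196 bp, limma adjusted p = 0.0443).

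Among the members named as genes rather than pseudogenes, the 4 that fell in PA were central copies, and the 1 that rose was an edge gene. Coverage was taken as the percent of a gene and 2.5 kb on each side that peaks covered, averaged over antibodies. Of the 44 Mup loci, 12 had no peak in any of 36 libraries, among them the genes Mup4, Mup8 and Mup9 and 9 pseudogenes. For these loci nothing can be said of acylation. Of the 32 tested with limma over 27117 genes, 6 were lower in PA, against 0.756% of all genes, and 3 were higher, against 13.7%. All PA preparations were below all WT preparations in 4 of the 32, against 0.944% of all genes, and above in 3, against 19.3%. The median difference was -1.49 percentage points over the 32 loci, against 1.82 over all genes. Of the 15 central genes, 13 were tested and 4 were lower (Mup15, Mup16, Mup17, Mup19), with none higher. Of the 6 edge genes, 5 were tested and 1 was higher (Mup6), with none lower. Against 13.7% of all genes higher, 1 of 5 is no result about edge genes as a group. Without single preparations, 3 loci were lower without PA 1A, PA 1B, WT 1B or WT 2B and 2 without WT 2A, and 1 was higher without PA 1A, PA 2A, WT 1A or WT 2A. With A and B averaged, 0 loci were called (smallest adjusted p 0.0791).

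Mup-ps16 (61783062 to 61801230) had the largest difference. It had 7.37%, 14.3%, 15.8% and 34.9% coverage in the PA preparations, against 70.3%, 65.9%, 73.0% and 80.5% in the WT preparations. No PA value reached the WT range, and coverage fell by 54.3 percentage points (SE 4.54, limma adjusted p = 0.00550). Mup19 (61778324 to 61782355), which encodes a urinary lipocalin and whose flank overlaps that of Mup-ps16, had 3.63%, 4.88%, 5.61% and 25.4% in PA, against 32.6%, 31.2%, 35.8% and 38.7% in WT. PA preparation 2B stood apart from the other PA preparations but was below each WT value. Mup19 fell by 24.7 points (SE 4.07, limma adjusted p = 0.0157), and its adjusted p was 0.0512 without WT preparation 2A. For the gene body alone, without the flank that runs into Mup-ps16, Mup19 fell by 11.0 points (limma adjusted p = 0.0260). With propionyl and butyryl marks alone its call was lost (adjusted p = 0.0612). Mup15 (61435787 to 61439833) had 0%, 1.38%, 0% and 0% in PA, against 10.8%, 11.8%, 12.2% and 14.2% in WT, and fell by 11.9 points (SE 0.797, limma adjusted p = 0.00431). It had a peak in 1 of 18 PA libraries and 18 of 18 WT libraries. Mup15 and Mup-ps16 kept their calls without any 1 preparation.

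Mup17 (61591929 to 61595865) had 0%, 5.48%, 4.02% and 14.4% in PA, against 12.0%, 17.7%, 19.1% and 28.4% in WT. PA preparation 2B lay above WT preparation 1A, which is of the other letter, but the values did not overlap within a letter. Coverage fell by 13.3 points (SE 3.14, limma adjusted p = 0.0361). Mup16 (61515592 to 61519627) averaged 27.6% ± 5.83 in PA and 39.2% ± 5.08 in WT (SD, n = 4 each) and fell by 11.6 points (limma adjusted p = 0.0319). The pseudogene Mup-ps9 (61163063 to 61166704) averaged 26.6% ± 11.2 in PA and 44.9% ± 7.38 in WT (SD, n = 4 each) and fell by 18.3 points (limma adjusted p = 0.0340). These 3 calls were lost when single preparations were left out. Without PA preparations 1A, 1B or 2A, or WT preparations 1A, 1B, 2A or 2B, adjusted p values were 0.0562 to 0.0997 for Mup17. Without PA 1A or 1B or any 1 WT preparation they were 0.0641 to 0.0824 for Mup16. Without PA 1A, 1B or 2A or any 1 WT preparation they were 0.0562 to 0.0888 for Mup-ps9. Without H4K16ac, adjusted p was 0.0504 for Mup16 and 0.0593 for Mup-ps9. Without the preparation letter in the model, all 3 calls were lost (0.0750 for Mup17, 0.0782 for Mup16 and 0.0886 for Mup-ps9), as they were with acetyl marks alone and with propionyl and butyryl marks alone. For the gene body alone, Mup16 fell by 26.5 points (adjusted p = 0.0194) and the call of Mup-ps9 was lost (0.0823), and with 5 kb on each side Mup17 fell by 8.71 points (0.0291). The difference kept its sign in each case.

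Mup6 (60003481 to 60007274), near the proximal edge, was the 1 Mup gene that passed the threshold with more coverage in PA. It had 9.50%, 12.6%, 12.0% and 14.2% in PA, against 1.42%, 0%, 4.83% and 0% in WT, with no overlap. It rose by 10.52 points (SE 1.26, limma adjusted p = 0.00792) and kept its call without any 1 preparation. The size depended on the flank, with 5.23 points for the gene body alone and 6.71 with 5 kb on each side, both past the threshold, and the call was lost with propionyl and butyryl marks alone (adjusted p = 0.170). The peak region over its promoter, from 60001501 to 60004515, was present in 13 of 18 PA libraries and 3 of 18 WT libraries. Of the pseudogenes, Mup-ps19 averaged 8.95% ± 1.55 in PA and 4.44% ± 1.72 in WT (limma adjusted p = 0.0293), and Mup-ps4 5.08% ± 2.52 in PA and 0.649% ± 0.750 in WT (limma adjusted p = 0.0472; SD, n = 4 each). Neither pseudogene body held a peak, so these values come from the flank alone. The regions there began at 61960581, past the end of Mup-ps19 at 61959979, and at 60440708, past the end of Mup-ps4 at 60440063. Both calls were lost without single preparations, Mup-ps19 without PA 1A, 1B or 2A or WT 1A or 2A (adjusted p 0.0639 to 0.0718) and Mup-ps4 without PA 1A or 2A or any 1 WT preparation (0.0924 to 0.114). They were also lost after quantile normalization (adjusted p 0.125 for Mup-ps19 and 0.132 for Mup-ps4) and without H4K16ac (0.0777 for Mup-ps19 and 0.0984 for Mup-ps4), and with acetyl marks alone or propionyl and butyryl marks alone. Mup-ps19 was also lost with 5 kb on each side (0.0737). Mup-ps4 was also lost with equal peak numbers (2.54 points, adjusted p = 0.261), without the preparation letter (0.0524), without the trend (0.0667) and without the filter (0.0513).

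**Figure D4:**
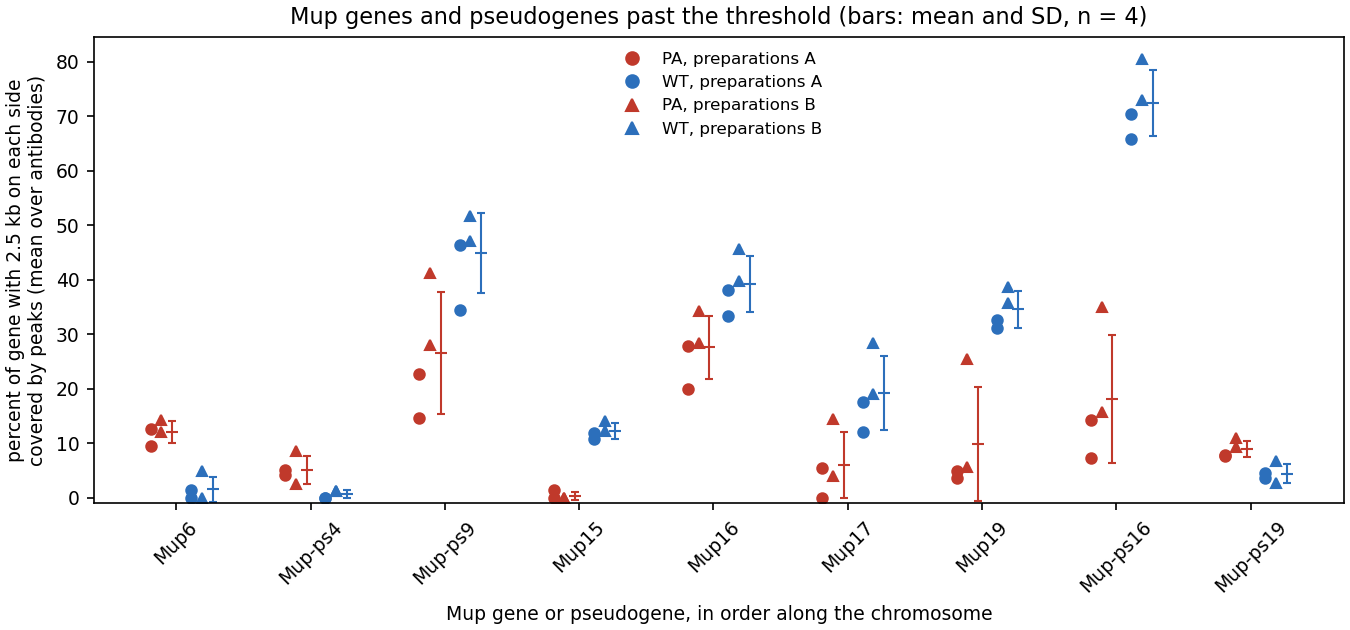
Percent of each Mup gene or pseudogene with 2.5 kb on each side covered by peaks, for the 9 past the threshold, with PA preparations in red and WT preparations in blue (circles, A; triangles, B; bars, mean and SD, n = 4). Mup-ps16, Mup19 and Mup15 separate by genotype with PA low, and Mup6, Mup-ps4 and Mup-ps19 with PA high.

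The most widely covered Mup genes were those of the distal edge, and they did not pass the test. Mup3 averaged 94.9% ± 3.26 in PA and 95.1% ± 3.76 in WT (SD, n = 4 each; difference -0.215 points, SE 2.09, limma adjusted p = 0.953). Mup20, which encodes the male pheromone darcin, averaged 40.7% ± 3.66 in PA and 40.4% ± 1.73 in WT (difference 0.267 points, SE 1.93, limma adjusted p = 0.936), and the pseudogene Mup-ps21 within it 57.5% ± 8.19 in PA and 56.6% ± 3.18 in WT. Mup21 averaged 42.6% ± 5.53 in PA and 39.6% ± 7.41 in WT (difference 3.01 points, SE 3.03, limma adjusted p = 0.497). The sign of these small differences was not stable: after quantile normalization they were -6.06 points for Mup20, -6.63 for Mup-ps21 and -3.41 for Mup21, and without H4K16ac -0.620 for Mup20, -1.37 for Mup-ps21 and -0.177 for Mup21, none past the threshold. Near full coverage leaves Mup3 no room to rise. Mup5, the edge gene nearest to the 40-kb stretch, averaged 5.09% ± 2.14 in PA and 9.86% ± 3.18 in WT (limma adjusted p = 0.0564). Among central genes without a call, Mup18 had 23.5% ± 14.8 in PA and 29.04% ± 10.7 in WT, and Mup11 had 23.4% ± 11.8 in PA and 27.1% ± 3.95 in WT (SD, n = 4 each). Of the 32 tested loci, 23 had no call, and gene windows overlap in places, as those of Mup15 and Mup16 do with Mup-ps12 and that of Mup7 with Mup-ps1.

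Merging the peaks of the 36 libraries gave 186 regions in the window, of which 18 were present in all 36. These constant regions included the 29757 bp across Mup3, 27243 bp at the Mup20 end with Mup-ps21, and 7052 bp at Mup21. In WT libraries alone there were 54 regions and in PA libraries alone 27, and 51 of the 186 regions were in 1 library. Regions in at least 9 WT libraries and 0 PA libraries numbered 7, and regions in at least 9 PA libraries and 0 WT libraries numbered 0. One of the 7, from 61437612 to 61438447 within Mup15, was present in 0 of 18 PA libraries and 18 of 18 WT libraries, with 500 to 814 bp covered in WT. Regions within Mup17 (61593668 to 61594606) and Mup19 (61779638 to 61780936) were present in 0 of 18 PA libraries and in 15 and 14 of 18 WT libraries. Several antibodies were used on each preparation, so the 18 libraries of a genotype are not independent replicates. The region counts were not set against the rest of the genome and were not tested.

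These regions of Mup15, Mup17 and Mup19 lay at like distances inside near-identical genes. The Mup15 region spans 1257 to 2092 bases downstream of the annotated start. At the same distance, chosen after its values were seen, peaks were present in 0 PA and 18 WT libraries at Mup15, in 0 PA and 15 WT libraries at Mup17 and in 0 PA and 14 WT libraries at Mup19, of 18 each. Mup18 had them in 8 PA and 12 WT libraries. Of the edge genes, Mup3 had them in 18 PA and 18 WT libraries and Mup21 in 16 PA and 9 WT libraries. The edge genes Mup4 and Mup6 had 0 PA and 0 WT libraries. Among other central genes, Mup11 had 3 PA and 3 WT libraries and Mup7 had 0 PA and 2 WT libraries. Mup2, Mup9, Mup10 and Mup14 had 0 PA and 0 WT libraries. Promoters showed a partly different order. The 300-base promoter of Mup19 printed above was touched by a peak in 9 PA and 17 WT libraries, that of Mup17 in 0 PA and 6 WT, that of Mup18 in 15 PA and 18 WT, that of Mup6 in 11 PA and 3 WT, that of Mup3 in 18 PA and 18 WT, and that of Mup15 in 0 PA and 0 WT. No test was made on these positions, and libraries of the same preparation are not independent replicates.

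**Figure D5:**
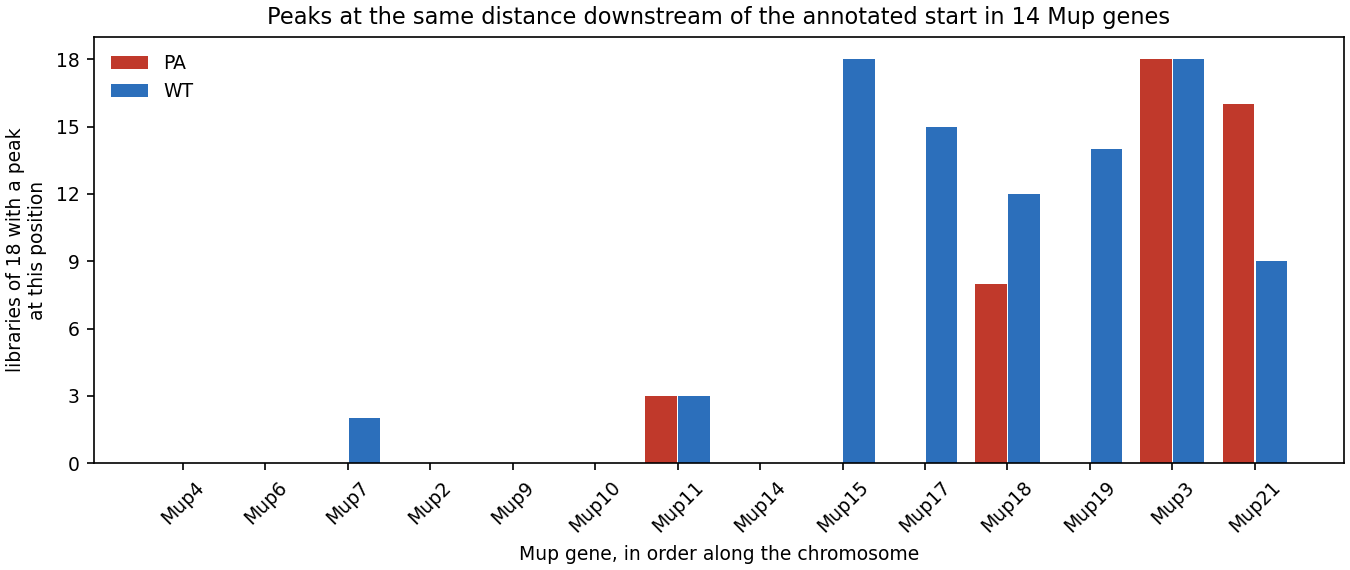
Number of PA (red) and WT (blue) libraries, of 18 each, with a peak 1257 to 2092 bases downstream of the annotated start in each of 14 Mup genes, in order along the chromosome. Mup15, Mup17 and Mup19 have peaks in 18, 15 and 14 WT libraries and in 0 PA libraries, while Mup3 has 18 of each.

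No bin or gene of the cluster passed the threshold in a single antibody, where 2 PA and 2 WT libraries were compared. Such fits called 0.00% of bins and 0.00% of genes in the whole genome, so the 0 calls are a limit of these fits. At an unadjusted limma p under 0.05, H3K9ac had 14 lower and 0 higher of 21 Mup loci tested, against 4.06% lower and 7.37% higher of all genes. H4K16bu had 10 lower and 1 higher of 24, against 3.32% lower and 9.30% higher of all genes. The other 7 antibodies had 3 to 6 lower and 0 to 3 higher loci of 19 to 27, against 7.75% to 28.0% of all genes higher. The share of all genes that was lower was 1.98% for H3K27ac, 1.43% for H4K5ac, 1.14% for H4K5pr, 1.73% for H4K12ac, 1.58% for H4K12pr, 0.317% for H4K16ac and 1.04% for H4K16pr. Differences between antibodies were not tested.

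The few genes of the window outside the Mup family were higher or did not pass the test. Slc31a2, a copper transporter gene at the distal border, averaged 16.02% ± 2.29 in PA and 11.1% ± 1.65 in WT (difference 4.95 points, SE 1.21, limma adjusted p = 0.0399). Gm12909, a non-coding RNA gene beside Mup3, averaged 90.3% ± 6.88 in PA and 84.5% ± 8.34 in WT (difference 5.76 points, limma adjusted p = 0.0499). Snx30, a sorting nexin gene at the proximal border, averaged 11.8% ± 1.96 in PA and 7.96% ± 0.871 in WT (limma adjusted p = 0.0512; SD, n = 4 each). After quantile normalization the calls of Slc31a2 and Gm12909 were lost (adjusted p 0.466 for Slc31a2 and 0.901 for Gm12909), and the Gm12909 difference turned to -0.512 points. Without any 1 preparation Gm12909 had an adjusted p of 0.0699 to 0.119, and Slc31a2 reached 0.0506 to 0.110 without each preparation other than PA 1B. With equal peak numbers both were lost (0.0865 for Slc31a2 and 0.0575 for Gm12909), and for the gene body alone Gm12909 differed by 0.197 points (0.911).

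Genes listed here for the control of Mup transcription did not pass the test. The list also held members of the growth hormone axis such as Igf1 and Igfals, so not each gene on it is a known regulator of Mup genes. Of the 20 listed genes, 0 were lower and 0 were higher by limma after adjustment, against 0.756% lower and 13.7% higher of all genes. Their median difference was 0.655 points, against 1.82 over all genes. Stat5b, the main growth hormone-activated factor of hepatocytes, averaged 55.5% in PA and 53.8% in WT (adjusted p = 0.603), and Zhx2, a transcription factor known to act on Mup genes, averaged 13.8% in PA and 11.4% in WT (adjusted p = 0.105). Ghr, the growth hormone receptor, averaged 28.2% in PA and 27.6% in WT (adjusted p = 0.811). After quantile normalization all 3 differences turned negative without passing the threshold. Of 9 other liver lipocalin genes tested, 0 were lower and 2 were higher, against the same 0.756% and 13.7% of all genes, so that 2 higher of 9 is near the background. Lcn2, an acute phase lipocalin, averaged 47.3% in PA and 28.6% in WT (limma adjusted p = 0.0125), and Ptgds, a prostaglandin D synthase, averaged 50.7% in PA and 35.6% in WT (limma adjusted p = 0.0380). Quantile normalization ended both calls (adjusted p 0.0537 for Lcn2 and 0.280 for Ptgds), and that of Ptgds was also lost with equal peak numbers (0.0568), without each preparation other than PA 1A (0.0678 to 0.0888) and without H4K16ac (0.264).

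In whole liver, a smaller share of a cell type and less acylation per cell cannot be told apart. Marker calls are to be read against the 0.756% of all genes that were lower and the 13.7% that were higher, and 1 higher gene in a list of 2 to 6 is no result about that list. Of 6 hepatocyte markers, 0 were lower and 1 was higher (Cps1, a urea cycle enzyme), and their summed coverage was 396 to 454 percentage points in PA and 324 to 444 in WT preparations. Kupffer cell markers had 0 calls of 4 tested with sums of 0 to 18.9 in PA and 0 to 21.3 in WT, and Marco at 0. Sinusoidal endothelial markers had 1 higher of 5 (Stab2), with sums of 112 to 136 in PA and 84.2 to 127 in WT. Cholangiocyte markers had 1 higher of 2 tested (Sox9), with Krt19, Krt7 and Epcam at 0 and sums of 34.4 to 44.2 in PA and 20.6 to 33.3 in WT. Lymphocyte markers had 0 calls of 3 tested, with Cd3e and Cd8a at 0 and sums of 17.7 to 26.4 in PA and 23.1 to 26.3 in WT. Of 5 genes not of liver, 4 were at 0 and the other had 0 calls. After quantile normalization the adjusted p was 0.0537 for Cps1, 0.0593 for Stab2 and 0.0369 for Sox9. The part of cell composition in the Mup differences was not tested.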

How the data were processed

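Histone acylation peaks were compared in livers of PA and WT mice; 46 samples included 8 inputs that were not used here. The authors deposited 38 peak lists, 1 a library, that hold positions in base pairs with no other score or value; the shortest region was 500 bp. Build and tools come from the submitters' processing notes: the build was GRCm38 (mm10) and the tools, whose roles are not recorded, were HOMER 4.10, bedtools 2.31.0, Bowtie2 2.5.1, R 4.1.2, SAMtools 1.17 and cutadapt 3.5. The sources used here give no peak settings, placement of multiply matching reads, use of inputs or read depth. No counting interval was therefore computed, and loci with no peak are called not listed.

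Covered base pairs (10-kb bins) and percent covered (genes with 2.5 kb on each side, RefSeq GRCm38.p6) were averaged over antibodies per preparation. The limma 3.58.1 model (R 4.3.3) held the letter of the preparation and the genotype, with an intensity trend. P-values were adjusted by Benjamini-Hochberg over the 74931 bins or 27117 genes that peaks of 2 or more of the 36 libraries touched, at a threshold of 0.05. Single values used exact two-sided permutation within letters. The 20 chromosome Y entries were removed. Named loci were every Mup gene past the threshold, the largest differences, the highest coverage and members of the lists. Promoter pairs were aligned globally with free end gaps. The fits were tested on simulated data. Alternatives were antibody subsets, equal peak numbers (widest kept), quantile normalization, bin size, gene flanks, filter, trend, preparation term, replicate block, averaging A with B and leaving out each preparation; letters alone, bins and genes, and leaving out libraries of single antibodies were added after the data were seen. The members and lists were chosen with earlier results of these data known. Other steps used matplotlib 3.10.9, pandas 2.3.3, numpy 2.4.6 and Python 3.11.15.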

Additional observations from a re-analysis of the deposited data

Results flagged for a closer look

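Among the 64 groups of 4 preparations examined for a value far from the rest, 5 held one, and chance gives about 1 in 20. Mup19 coverage in PA preparation 2B was 25.4%, while the other 3 PA preparations lay between 3.63% and 5.61%. Mup15 coverage in PA preparation 2A was 1.38%, while the other PA preparations were at 0%. Mup5 coverage in WT preparation 1A was 5.13%, while the other WT preparations lay between 10.8% and 11.9%. Slc31a2 coverage in PA preparation 2B was 19.45%, while the other PA preparations lay between 14.6% and 15.0%. Stat5b coverage in PA preparation 2B was 54.2%, while the other PA preparations lay between 55.9% and 56.05%.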

How the results depend on the processing

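No whole-cluster result and none of the 9 called Mup loci changed sign under any alternative run. Gm12909, called as reported, turned to -0.512 points after quantile normalization. When A and B of the same number were averaged, 2 against 2, or when letters A or B were fitted alone, 0 bins and 0 genes were called in either direction; averaging gave a smallest adjusted p of 0.0967 for bins and 0.0791 for genes. With acetyl marks alone, 7 bins and 3 genes were lower and 1 gene was higher; with propionyl and butyryl marks alone, 5 bins and 2 genes were lower and 0 bins and 0 genes were higher. Bins of 25 kb gave 7 lower and 5 higher. Without the trend, 4 bins were higher. Without the preparation term, 1 bin was higher and 3 genes were lower. Quantile normalization moved the median difference of all bins from 158 to -13.5 bp; it kept all 13 lower bins and 6 lower genes and left 1 higher bin and 1 higher gene. Without H4K16ac, 1 bin and 1 gene were higher. Coverage of Mup genes alone, without flanks, left 1 gene higher. Leaving out 1 preparation gave 6 to 11 lower bins (6 to 9 of the original 13), 1 to 2 higher bins, 2 to 7 lower genes and 1 to 3 higher genes. Labels share numbers between genotypes. Deviations from the group mean in same-numbered PA and WT preparations had r = -0.035 for A and -0.0411 for B over bins. Over genes r was -0.0384 for A and -0.139 for B. With 2 preparations per genotype and letter, these values cannot show whether the numbers pair animals. With the replicate number as a block, 12 of the 13 lower bins remained and 5 bins were higher. The cause of these changes was not tested. Read depth is not known, which limits what a locus without a peak can show.
Genes named without a call changed sign more often, none past the threshold after turning. After quantile normalization the differences in points were -6.06 for Mup20, -6.63 for Mup-ps21, -3.41 for Mup21, -4.50 for Ghr, -5.86 for Stat5b and -0.631 for Zhx2. Without H4K16ac they were -0.620 for Mup20, -1.37 for Mup-ps21, -0.177 for Mup21 and -0.914 for Stat5b. With propionyl and butyryl marks alone they were -3.07 for Mup20, -9.40 for Mup-ps21, 0.528 for Mup3, -2.91 for Mup21 and -1.82 for Stat5b. With letter A alone they were -1.10 for Mup20, -5.0003 for Mup-ps21 and 1.30 for Mup3, and with letter B alone 1.56 for Mup11 and -0.959 for Stat5b. Equal peak numbers gave -0.740 for Mup20 and -0.0870 for Ghr. The gene body alone gave -0.0978 for Mup20, and 5 kb on each side 3.09 for Mup3. Without 1 preparation at a time they ranged from -7.20 to 0.244 for Mup11, -1.20 to 1.19 for Mup20, -1.40 to 3.58 for Mup-ps21, -1.76 to 0.725 for Mup3, -0.316 to 1.58 for Ghr and -0.0334 to 3.04 for Stat5b.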

Other observations

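The in-house H4K16pr antibody, with 2 WT libraries and no PA library, covered 78750 and 35275 bp of the cluster, or 0.164% and 0.226% of the covered length of each library. In the 40 kb from Mup19 through Mup-ps16 it covered 14396 and 4117 bp.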
